A study of Mus musculus with 12 samples.

Results

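The genes described here encode respiratory complexes II and III, cytochrome c, ATP synthase and some subunits of complex IV in the mouse. They were chosen by symbol. A probe set of the deposited table belonged if its single symbol began with Sdha, Sdhb, Sdhc, Sdhd, Uqcr or Atp5, or was Cyc1, Cycs, Cox5a, Cox5b, Cox6c, Cox7b or Cox7c. This gave 80 probe sets of 39 genes, out of 18193 genes with a probe set of 1 symbol. Each gene was read from its brightest probe set by the mean of the 12 arrays, and all 39 genes were among the 12855 genes bright enough to test. Cox7b had no probe set that names it alone and was not analysed here.

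The samples are 12 Affymetrix arrays of white fat from male C57/BL6 mice. They form 4 groups of 3 arrays, which are 1 week of cold at 4 °C, its 1 week controls, 5 weeks of cold at 4 °C, and its 5 week controls. The design sets cold against control at 2 times. Per the labels the mice were 6 to 8 weeks old and had been maintained at 22 °C, and an adaptation of 1 to 3 weeks at 18 °C preceded the move to 4 °C. The control temperature is 30 °C in the titles and room temperature in the source names, and the fat depot is not stated. Whether each array stands for its own mouse is not said either, and every p-value below rests on the spread between arrays, which may be technical. The fat cell hormone Adipoq read between log2 14.59 and log2 14.83 on all 12 arrays. The 3 arrays of each group limit the precision of every value below.

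Complex II (succinate dehydrogenase) passes electrons from succinate to ubiquinone and is also an enzyme of the tricarboxylic acid cycle. Complex III passes them from ubiquinol to cytochrome c, the small carrier that delivers them to complex IV, where oxygen is reduced. Complexes III and IV pump protons, and ATP synthase makes ATP as protons flow back through its ring of c subunits; brown and beige fat cells are rich in mitochondria, and in them the uncoupling protein Ucp1 lets protons return without making ATP.

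Of the 39 genes, 31 had a promoter in the RefSeq table for GRCm38.p6, which holds 250 bases before to 50 bases after each gene start. The last 120 bases before the start are shown for Uqcrc1 and Uqcrfs1, which had the highest mean cold effect among these 31, for Cycs and Sdha, which hold matches to the core letters of the NRF1 motif, and for the 3 genes of the ATP synthase c subunit, which include 2 of the 3 genes that fell at either time. The last 5 were chosen after their values were seen. Uqcr10 and Sdhb, next among these 31 by mean cold effect, are not shown. Like Uqcrc1 and Uqcrfs1 they held no motif match in these 120 bases. Capitals mark a motif match. In Cycs, Sdha and Atp5g2 they are the NRF1 core and in Atp5g3 the ERR element.
Uqcrc1 (chr9:108936528-108936647, plus strand): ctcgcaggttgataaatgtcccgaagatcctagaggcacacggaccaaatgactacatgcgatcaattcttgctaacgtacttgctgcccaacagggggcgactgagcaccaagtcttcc
Uqcrfs1 (chr13:30545317-30545436, minus strand): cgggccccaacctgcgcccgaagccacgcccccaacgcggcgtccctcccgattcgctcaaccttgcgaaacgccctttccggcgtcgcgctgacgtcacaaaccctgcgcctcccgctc
Cycs (chr6:50566570-50566689, minus strand): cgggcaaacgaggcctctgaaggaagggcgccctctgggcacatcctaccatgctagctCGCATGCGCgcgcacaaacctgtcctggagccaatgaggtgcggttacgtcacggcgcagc
Sdha (chr13:74350241-74350360, minus strand): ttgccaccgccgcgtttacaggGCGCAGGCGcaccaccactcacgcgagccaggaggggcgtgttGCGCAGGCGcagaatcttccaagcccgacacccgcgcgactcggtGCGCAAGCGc
Atp5g2 (chr15:102671048-102671167, minus strand): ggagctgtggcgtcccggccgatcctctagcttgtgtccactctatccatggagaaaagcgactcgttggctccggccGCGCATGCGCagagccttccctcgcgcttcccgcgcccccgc
Atp5g3 (chr2:73911327-73911446, minus strand): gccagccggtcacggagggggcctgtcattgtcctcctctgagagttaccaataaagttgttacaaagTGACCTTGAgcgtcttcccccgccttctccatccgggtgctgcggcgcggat
Atp5g1 (chr11:96075632-96075751, minus strand): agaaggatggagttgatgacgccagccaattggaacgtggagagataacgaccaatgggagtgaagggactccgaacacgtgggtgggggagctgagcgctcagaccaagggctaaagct

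All 300 bases of each promoter were searched on both strands for 4 motifs of factors that are known to act on respiratory genes. The NRF1 core GCGCANGCG was found in 14 of the 31 genes and in 6.25% of all 32851 promoter windows. The 31 genes had 34 windows, and a gene was counted if any of its windows matched. The share beside each count is over windows, not genes. Sdha had 3 matches, and in Atp5g2, Atp5k and Uqcrc1 a match on the plus strand overlapped one on the minus strand. All matches in Uqcrc1 lay after the gene start, outside the bases printed here. The GABP site CCGGAAG was found in 13 genes and in 8.86% of windows, the YY1 site AAGATGGCG in 2 genes (Atp5j and Atp5j2) and 1.4% of windows, and the ERR element TCAAGGTCA in 2 genes (Atp5g3 and Sdhd) and 0.423% of windows. In total 22 of the 31 genes held at least 1 of the 4 motifs. A match describes letters in a window, and whether any factor bound there was not measured.

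At 1 week of cold 35 of the 39 genes rose and 2 fell (limma on 4 group means, Benjamini-Hochberg adjusted p under 0.05 over all genes tested), where 17.9% of all genes tested rose and 31.6% fell. At 5 weeks 27 rose and 2 fell, where 15% of all genes rose and 21.2% fell. The median log2 fold change of the 39 genes, cold over control, was 0.90 at 1 week, beside -0.08 over all genes, and 0.61 at 5 weeks, beside -0.03. In 35 genes at 1 week and 27 at 5 weeks all 3 cold arrays lay above all 3 control arrays, which 26% and 28.3% of all genes also did. Rises of at least 2-fold were called in 15 genes at 1 week and 7 at 5 weeks, where 4.03% and 2.68% of all genes had one. Both comparisons called a rise in 27 genes. A rise was called at 1 week but not at 5 weeks in 8 genes, Sdhc, Sdhaf1, Uqcr11, Uqcrh, Atp5e, Atp5l, Atp5mpl and Atp5g2. That left Atp5g1, Atp5g3, Cox7c and Atp5j, none of which rose at either time.

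**Figure D1:**
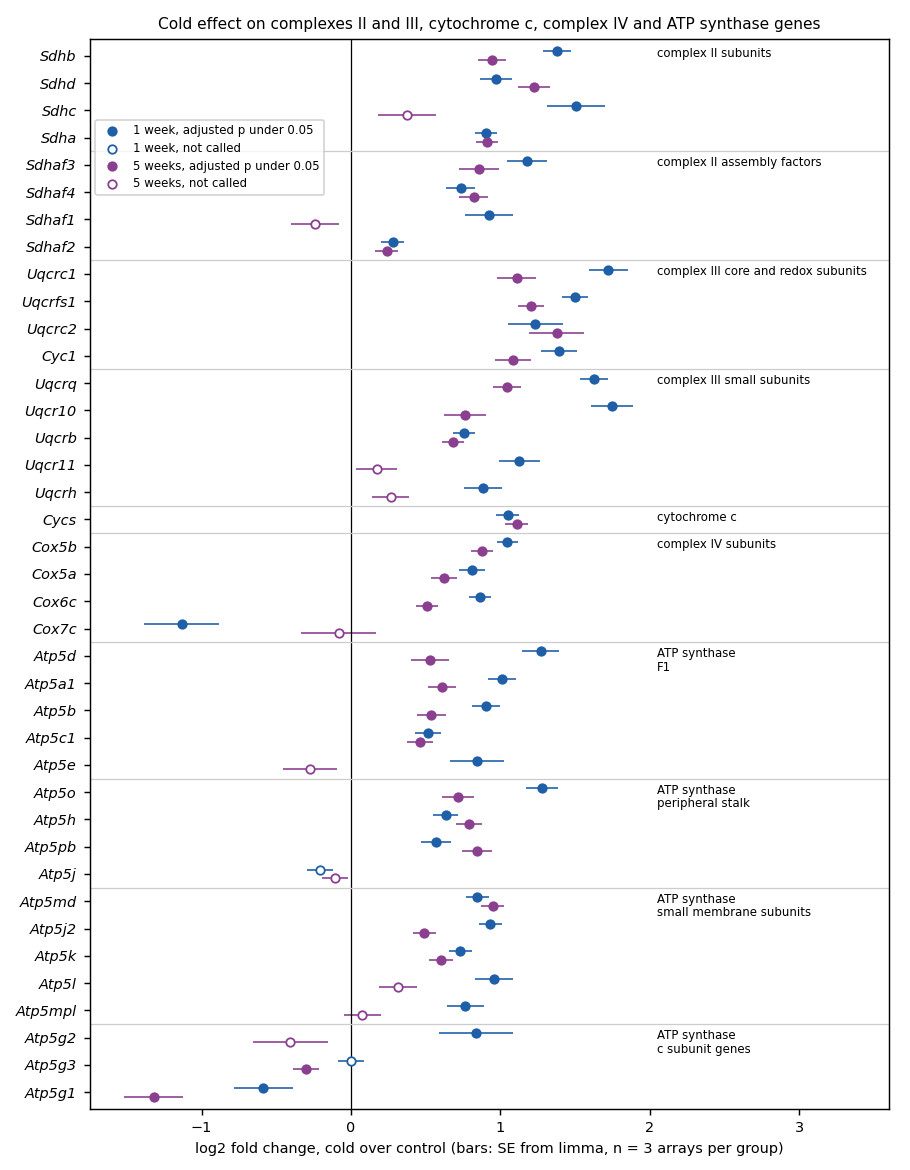
Log2 fold change, cold over control, of the 39 genes (x axis) by role (y axis), at 1 week in blue and 5 weeks in purple, with filled points for an adjusted p under 0.05 and bars for the SE (n = 3 arrays per group). Filled points right of 0 run from log2 0.24 to 1.75, and those left of 0 are Cox7c at 1 week, Atp5g3 at 5 weeks and Atp5g1 at both times.

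Because the tissue was measured in bulk, more cells of a type and more RNA per cell cannot be told apart. Other signals moved with the cold as well. Brown and beige adipocyte markers rose (8 of 11 at 1 week and 9 of 11 at 5 weeks, with 1 fall), and their mean signal was log2 10.24 to 10.45 on the 1 week cold arrays, against 6.57 to 7.30 on the 1 week controls, and 10.16 to 10.45 on the 5 week cold arrays, against 7.04 to 7.36 on the 5 week controls. White adipocyte markers were mixed, with 2 rises and 2 falls of 8 at 1 week and 1 rise and 3 falls at 5 weeks, and their mean was log2 13.22 to 13.35 on the 1 week cold arrays, against 13.34 to 13.63 on the 1 week controls, and 13.12 to 13.26 on the 5 week cold arrays, against 13.50 to 13.63 on the 5 week controls. Macrophage markers fell in 9 of 12 at 1 week, with 1 rise, and in 11 of 12 at 5 weeks, with a mean of log2 10.004 to 10.20 on the 1 week cold arrays, against 10.49 to 10.67 on the 1 week controls, and 9.70 to 10.01 on the 5 week cold arrays, against 10.82 to 10.85 on the 5 week controls. Lymphocyte markers fell in 10 of 10 at each time, with a mean of log2 8.74 to 9.20 on the 1 week cold arrays, against 9.52 to 10.26 on the 1 week controls, and 8.96 to 9.04 on the 5 week cold arrays, against 9.95 to 10.01 on the 5 week controls. Of 3 erythrocyte transcripts tested 2 rose at 1 week and none at 5 weeks, and 2 of 10 epididymal and epithelial markers were bright enough to test, of which 1 rose at 1 week. Their part in the rises of the respiratory genes was not tested.

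Skeletal muscle, another tissue rich in respiratory complexes, left uneven traces. The mean of 18 muscle markers was log2 5.24, 9.51 and 5.34 on the 1 week cold arrays, against 5.40, 5.70 and 5.30 on the 1 week controls, and 5.15, 5.08 and 4.97 on the 5 week cold arrays, against 7.87, 8.10 and 8.01 on the 5 week controls. Of these markers 2 rose at 1 week and 9 fell at 5 weeks. The mean of the 39 genes was log2 12.75 on cold_1wk 2, the array with the high muscle signal, and 12.70 and 12.76 on the other 1 week cold arrays. With the muscle mean as a covariate 35 genes rose and 3 fell at 1 week, and 25 rose and 1 fell at 5 weeks, where 17.2% and 9.97% of all genes rose. Set against the 1 week controls, whose muscle signal was low, the 5 week cold arrays were higher in 28 genes and lower in 2, Atp5g1 and Atp5g3. In that comparison 13.6% of all genes were higher. Of those controls, control_1wk 2 and 3 stood apart in a measure of RNA quality given below.

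RNA quality also differed between arrays. RNA integrity is often checked by the log2 signal at the 3' end of a transcript minus that at its 5' end. For the Gapdh control probe sets this difference was -0.08, 0.34 and -0.08 on the 1 week cold arrays, against 0.90, 3.00 and 3.12 on the 1 week controls, and 0.96, 0.19 and 3.01 on the 5 week cold arrays, against 0.03, -0.01 and -0.08 on the 5 week controls. The same measure for beta-actin was 2.03, 1.84 and 2.80 on the 5 week cold arrays and between 1.01 and 1.35 on the other 9. On cold_5wk 3, high in both measures, 30 of the 39 genes had the lowest signal of its group. On control_1wk 1, with the lowest Gapdh difference of the 1 week controls, 34 of the 39 genes had the highest signal of its group. These counts were not made over all genes. With the Gapdh measure as a covariate 32 genes rose and none fell at 1 week, and 31 rose and 1 fell at 5 weeks, where 8.65% and 12.7% of all genes rose. Without control_1wk 2 and 3 a rise was called in 31 genes and a fall in none at 1 week, where 7.97% of all genes rose. That fit leaves 1 control array at 1 week, which is assumed to vary like the arrays of the other groups. With the beta-actin measure as a covariate 23 genes rose at 5 weeks, where 3.77% of all genes did.

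**Figure D2:**
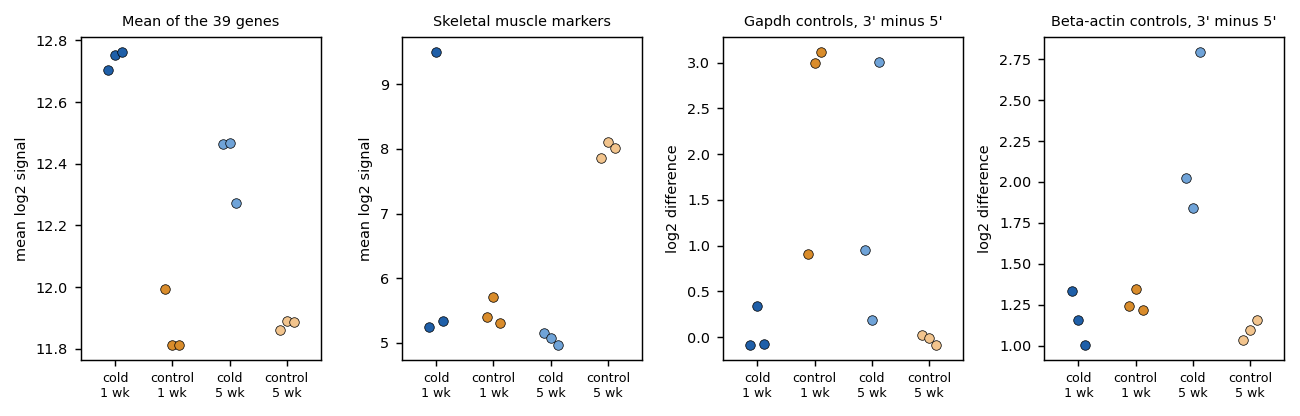
Mean log2 signal of the 39 genes, mean log2 signal of 18 skeletal muscle markers, and the log2 3' minus 5' difference of the Gapdh and the beta-actin control probe sets (y axes), 1 point per array in the 4 groups (x axes). The 39 genes average 12.70 to 12.76 on 1 week cold arrays, against 11.81 to 11.99 on their controls, and 12.27 to 12.47 on 5 week cold arrays, against 11.86 to 11.89 on theirs, while the other 3 measures set single arrays or groups apart.

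The call counts over all genes depended on scaling. Centring each array on the median of the tested genes moved the median of all genes to 0.14 at 1 week and 0.13 at 5 weeks, and the share of rises among called genes to 63.9%, against 36.2%, at 1 week and 66.6%, against 41.4%, at 5 weeks; quantile normalization gave 45.8% at 1 week and 53.1% at 5 weeks. With centring 35 of the 39 genes rose and 1 (Cox7c) fell at 1 week, and 29 rose and 1 (Atp5g1) fell at 5 weeks, with medians of 1.12 and 0.77, where 35.8% and 27.8% of all genes rose.

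In complex II all 4 subunits rose at 1 week and 3 of 4 at 5 weeks. Sdhb, the iron-sulfur subunit, read log2 13.68, 13.58 and 13.75 on the 1 week cold arrays, against 12.45, 12.18 and 12.25 on the 1 week controls. At 5 weeks Sdhb read 13.23, 13.28 and 13.11 on the cold arrays, against 12.21, 12.24 and 12.33 on the controls. Sdhb cold arrays lay above all of their controls at both times (log2 1.38, SE 0.09, adjusted p = 2.42e-06 at 1 week and log2 0.95, SE 0.09, adjusted p = 3.11e-05 at 5 weeks), and the effect at 5 weeks was lower (difference log2 -0.43, SE 0.13, adjusted p = 0.0409). Sdhc, a membrane anchor of the complex, read log2 12.67, 12.53 and 12.73 on the 1 week cold arrays, against 11.59, 11.000 and 10.82 on the 1 week controls. At 5 weeks Sdhc read 12.22, 12.27 and 11.69 on the cold arrays, against 11.77, 11.62 and 11.67 on the controls. Its 5 week groups overlapped, since cold_5wk 3 lay within the range of the controls, and only the 1 week change passed the test (log2 1.51, SE 0.19, adjusted p = 0.000109 at 1 week and log2 0.37, SE 0.19, adjusted p = 0.156 at 5 weeks). Sdha, the flavoprotein that oxidises succinate, read log2 13.25, 13.29 and 13.34 on the 1 week cold arrays, against 12.47, 12.37 and 12.34 on the 1 week controls. At 5 weeks Sdha read 13.22, 13.18 and 13.10 on the cold arrays, against 12.27, 12.28 and 12.21 on the controls. Sdha groups did not overlap (log2 0.90, SE 0.07, adjusted p = 7.49e-06 at 1 week and log2 0.91, SE 0.07, adjusted p = 9.42e-06 at 5 weeks), and the 5 week minus 1 week difference was 0.01 (SE 0.11). Sdhd, the other membrane anchor, rose by log2 0.97 at 1 week and 1.23 at 5 weeks (SE 0.11 for each). Another Sdhd probe set, averaging log2 11.43, gave 1.60 at 1 week and 0.91 at 5 weeks.

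The assembly factors of complex II rose in 4 of 4 at 1 week and 3 of 4 at 5 weeks. Sdhaf3, which helps to mature the iron-sulfur subunit, read log2 9.05, 9.35 and 9.39 on the 1 week cold arrays, against 8.08, 8.10 and 8.07 on the 1 week controls. At 5 weeks Sdhaf3 read 8.73, 9.24 and 8.76 on the cold arrays, against 8.07, 8.06 and 8.03 on the controls. Sdhaf3 cold arrays were above all controls at each time (log2 1.18, SE 0.13, adjusted p = 5.25e-05 at 1 week and log2 0.86, SE 0.13, adjusted p = 0.000616 at 5 weeks). Sdhaf1, which acts on the same subunit, read log2 8.23, 8.71 and 8.58 on the 1 week cold arrays, against 7.83, 7.67 and 7.26 on the 1 week controls. At 5 weeks Sdhaf1 read 7.40, 7.75 and 7.58 on the cold arrays, against 7.82, 7.82 and 7.81 on the controls. For Sdhaf1 the cold arrays were above the controls at 1 week but below them at 5 weeks, where the change did not pass the test (log2 0.92, SE 0.16, adjusted p = 0.000731 at 1 week and log2 -0.24, SE 0.16, adjusted p = 0.267 at 5 weeks). Sdhaf2, needed to attach flavin to Sdha, read log2 9.86, 9.89 and 9.84 on the 1 week cold arrays, against 9.65, 9.52 and 9.58 on the 1 week controls. At 5 weeks Sdhaf2 read 9.85, 9.98 and 9.82 on the cold arrays, against 9.64, 9.62 and 9.68 on the controls. The Sdhaf2 groups did not overlap, although both changes were small (log2 0.28, SE 0.08, adjusted p = 0.0101 at 1 week and log2 0.24, SE 0.08, adjusted p = 0.0294 at 5 weeks); the 5 week call was lost in 5 of the 6 cases in which 1 array of that comparison was left out, with log2 0.19 to 0.25, all except cold_5wk 3. Sdhaf4, which binds the flavinated Sdha, rose by log2 0.73 at 1 week and 0.82 at 5 weeks.

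By brightest probe set the largest rise of the 39 genes was that of Uqcr10 at 1 week and that of Uqcrc2 at 5 weeks, both of complex III. Without control_1wk 1 Uqcrc1 (1.87) passed Uqcr10 (1.81), and at 5 weeks another probe set of Cycs rose more (1.68). All 4 core and redox subunits rose at both times, with log2 fold changes of 1.23 to 1.72 at 1 week and 1.08 to 1.38 at 5 weeks. Uqcrc1, a core protein, read log2 12.68, 12.85 and 12.70 on the 1 week cold arrays, against 11.31, 10.81 and 10.94 on the 1 week controls. At 5 weeks Uqcrc1 read 12.13, 12.16 and 11.90 on the cold arrays, against 10.94, 11.07 and 10.84 on the controls. It rose 3.30-fold at 1 week and 2.16-fold at 5 weeks with no overlap of the groups (log2 1.72, SE 0.13, adjusted p = 4.62e-06 at 1 week and log2 1.11, SE 0.13, adjusted p = 0.000101 at 5 weeks). Cyc1, the cytochrome c1 subunit that hands electrons to cytochrome c, read log2 13.84, 13.80 and 13.88 on the 1 week cold arrays, against 12.76, 12.22 and 12.37 on the 1 week controls. At 5 weeks Cyc1 read 13.62, 13.58 and 13.52 on the cold arrays, against 12.44, 12.46 and 12.56 on the controls. Cyc1 groups were likewise apart (log2 1.39, SE 0.12, adjusted p = 9.92e-06 at 1 week and log2 1.08, SE 0.12, adjusted p = 6.32e-05 at 5 weeks). Uqcrfs1, the Rieske iron-sulfur protein, rose by log2 1.50 at 1 week and 1.20 at 5 weeks (SE 0.09 for each). Uqcrc2, the other core protein, rose by log2 1.23 and 1.38 (SE 0.18 for each).

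The 5 small subunits of complex III rose at 1 week in every case and in 3 cases at 5 weeks. Uqcrq read log2 12.87, 12.79 and 12.81 on the 1 week cold arrays, against 11.35, 11.06 and 11.20 on the 1 week controls. At 5 weeks Uqcrq read 12.49, 12.44 and 12.33 on the cold arrays, against 11.48, 11.33 and 11.30 on the controls. Uqcrq cold arrays stood above all controls at both times (log2 1.63, SE 0.09, adjusted p = 1.01e-06 at 1 week and log2 1.04, SE 0.09, adjusted p = 1.62e-05 at 5 weeks). Uqcr10 read log2 12.49, 12.61 and 12.64 on the 1 week cold arrays, against 10.96, 10.71 and 10.84 on the 1 week controls. At 5 weeks Uqcr10 read 11.80, 11.73 and 11.18 on the cold arrays, against 10.82, 10.82 and 10.78 on the controls. It rose 3.35-fold at 1 week and 1.70-fold at 5 weeks (log2 1.75, SE 0.14, adjusted p = 6.90e-06 at 1 week and log2 0.76, SE 0.14, adjusted p = 0.00174 at 5 weeks), and cold_5wk 3 was the lowest cold array. Uqcr11 read log2 12.71, 12.88 and 12.60 on the 1 week cold arrays, against 11.78, 11.49 and 11.53 on the 1 week controls. At 5 weeks Uqcr11 read 11.89, 11.81 and 11.39 on the cold arrays, against 11.55, 11.58 and 11.45 on the controls. Uqcr11 groups were apart at 1 week and overlapped at 5 weeks (log2 1.13, SE 0.14, adjusted p = 7.58e-05 at 1 week and log2 0.17, SE 0.14, adjusted p = 0.355 at 5 weeks). Uqcrh, the hinge protein that contacts cytochrome c1, read log2 14.14, 14.14 and 14.11 on the 1 week cold arrays, against 13.25, 13.25 and 13.23 on the 1 week controls. At 5 weeks Uqcrh read 13.43, 13.41 and 12.89 on the cold arrays, against 12.92, 13.02 and 12.996 on the controls. Uqcrh on cold_5wk 3 was below its controls, while the other 5 week cold arrays were above them (log2 0.88, SE 0.13, adjusted p = 0.000202 at 1 week and log2 0.27, SE 0.13, adjusted p = 0.121 at 5 weeks). Uqcrb rose by log2 0.76 at 1 week and 0.68 at 5 weeks (SE 0.07 for each).

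Cytochrome c itself, Cycs, read log2 14.75, 14.65 and 14.75 on the 1 week cold arrays, against 13.78, 13.60 and 13.63 on the 1 week controls. At 5 weeks Cycs read 14.81, 14.75 and 14.72 on the cold arrays, against 13.63, 13.63 and 13.70 on the controls. The 6 cold arrays lay close together and above every control, a rise of 2.07-fold at 1 week and 2.16-fold at 5 weeks (log2 1.05, SE 0.08, adjusted p = 4.01e-06 at 1 week and log2 1.11, SE 0.08, adjusted p = 3.11e-06 at 5 weeks). The difference between the effects was 0.06 (SE 0.11, adjusted p = 0.732, limma). Other Cycs probe sets gave larger rises, of log2 1.47 and 1.71 at 1 week and 1.17 and 1.68 at 5 weeks.

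Of the 4 complex IV subunits 3 rose at both times. Cox5b read log2 14.46, 14.44 and 14.47 on the 1 week cold arrays, against 13.49, 13.33 and 13.42 on the 1 week controls. At 5 weeks Cox5b read 14.36, 14.32 and 14.37 on the cold arrays, against 13.43, 13.51 and 13.48 on the controls. Cox5b groups did not overlap (log2 1.05, SE 0.07, adjusted p = 2.59e-06 at 1 week and log2 0.88, SE 0.07, adjusted p = 9.68e-06 at 5 weeks), but a dim probe set of Cox5b, averaging log2 5.61, gave 0.19 and 0.06, neither called. Cox6c read log2 13.60, 13.65 and 13.62 on the 1 week cold arrays, against 12.81, 12.70 and 12.78 on the 1 week controls. At 5 weeks Cox6c read 13.36, 13.32 and 13.21 on the cold arrays, against 12.77, 12.84 and 12.76 on the controls. Its cold arrays were above all controls at both times (log2 0.86, SE 0.07, adjusted p = 1.00e-05 at 1 week and log2 0.51, SE 0.07, adjusted p = 0.000391 at 5 weeks), and another Cox6c probe set gave 0.27 (adjusted p = 0.0548, limma) and 0.42. Cox5a, which with Cox5b belongs to the structural subunits encoded in the nucleus, rose by log2 0.81 at 1 week and 0.62 at 5 weeks.

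Cox7c went the other way at 1 week. It read log2 5.10, 5.75 and 6.34 on the 1 week cold arrays, against 6.58, 7.19 and 6.80 on the 1 week controls. At 5 weeks Cox7c read 6.52, 6.65 and 6.47 on the cold arrays, against 6.54, 6.65 and 6.70 on the controls. The 1 week cold arrays were all below the controls, widely spread, and the 5 week groups overlapped (log2 -1.13, SE 0.25, adjusted p = 0.00329 at 1 week and log2 -0.08, SE 0.25, adjusted p = 0.824 at 5 weeks). This probe set matches more than 1 transcript by its name. The other Cox7c probe set above the filter, averaging log2 4.75, gave -0.29 at 1 week (adjusted p = 0.305, limma), and the 1 week fall was not called with the Gapdh covariate (-1.03) or without control_1wk 2 and 3 (-0.86).

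**Figure D3:**
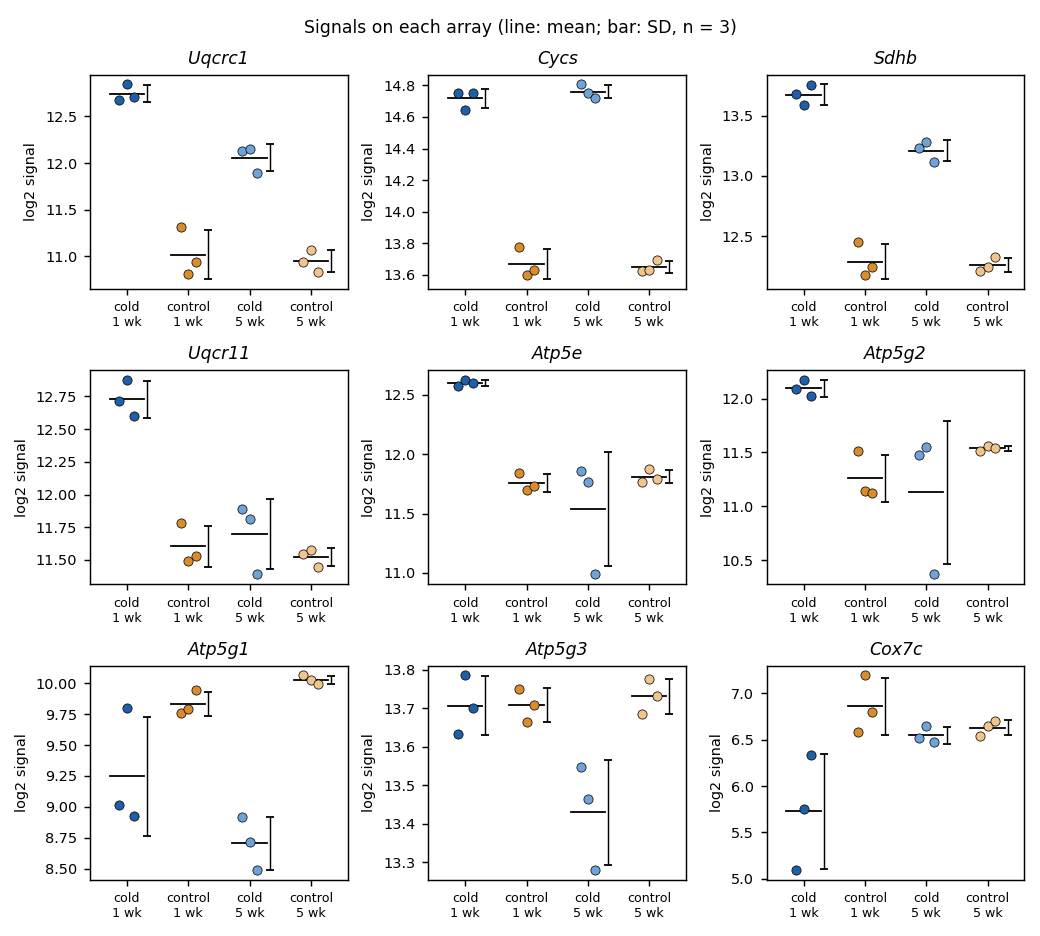
Log2 signals of 9 of the genes on each array (points) with the group mean (line) and SD (bar, n = 3) for 1 week cold, 1 week control, 5 week cold and 5 week control arrays; each panel has its own y axis. Uqcrc1, Cycs and Sdhb are above their controls at both times, Uqcr11, Atp5e and Atp5g2 at 1 week only, Atp5g1 and Atp5g3 are below them at 5 weeks and Cox7c at 1 week.

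The catalytic F1 head of ATP synthase rose in 5 of 5 genes at 1 week and 4 of 5 at 5 weeks. Atp5d, the delta subunit of the central stalk, read log2 12.88, 12.81 and 12.96 on the 1 week cold arrays, against 11.93, 11.46 and 11.45 on the 1 week controls. At 5 weeks Atp5d read 12.43, 12.45 and 12.26 on the cold arrays, against 11.82, 11.90 and 11.84 on the controls. Atp5d groups were apart at both times (log2 1.27, SE 0.12, adjusted p = 2.11e-05 at 1 week and log2 0.53, SE 0.12, adjusted p = 0.00671 at 5 weeks), while the other Atp5d probe set gave 2.36 at 1 week and -0.10 at 5 weeks. Atp5a1, the alpha subunit, read log2 14.03, 13.95 and 14.14 on the 1 week cold arrays, against 13.08, 12.97 and 13.04 on the 1 week controls. At 5 weeks Atp5a1 read 13.64, 13.63 and 13.47 on the cold arrays, against 13.05, 13.03 and 12.84 on the controls. Cold arrays of Atp5a1 were above every control (log2 1.01, SE 0.09, adjusted p = 1.33e-05 at 1 week and log2 0.61, SE 0.09, adjusted p = 0.00045 at 5 weeks). Atp5e, the epsilon subunit, read log2 12.57, 12.62 and 12.60 on the 1 week cold arrays, against 11.84, 11.69 and 11.73 on the 1 week controls. At 5 weeks Atp5e read 11.85, 11.77 and 10.99 on the cold arrays, against 11.77, 11.88 and 11.79 on the controls. Atp5e was higher on all 1 week cold arrays, whereas the 5 week groups overlapped with cold_5wk 3 far below the rest (log2 0.84, SE 0.18, adjusted p = 0.00259 at 1 week and log2 -0.27, SE 0.18, adjusted p = 0.26 at 5 weeks). Atp5b, the catalytic beta subunit, rose by log2 0.90 at 1 week and 0.54 at 5 weeks, and Atp5c1, the gamma subunit, by 0.52 and 0.46. A dimmer Atp5c1 probe set gave -0.40 at 1 week (adjusted p = 0.0578, limma) and 0.31 at 5 weeks.

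In the peripheral stalk, which holds the F1 head still, 3 of 4 genes rose at each time. Atp5o, the subunit that joins the stalk to F1, read log2 14.02, 14.01 and 13.998 on the 1 week cold arrays, against 12.90, 12.57 and 12.73 on the 1 week controls. At 5 weeks Atp5o read 13.48, 13.49 and 13.16 on the cold arrays, against 12.63, 12.66 and 12.68 on the controls. Atp5o cold arrays were above all controls (log2 1.28, SE 0.11, adjusted p = 8.50e-06 at 1 week and log2 0.72, SE 0.11, adjusted p = 0.000451 at 5 weeks). Atp5j, coupling factor 6, read log2 11.79, 11.92 and 11.66 on the 1 week cold arrays, against 12.10, 11.96 and 11.93 on the 1 week controls. At 5 weeks Atp5j read 11.92, 11.83 and 11.81 on the cold arrays, against 11.95, 11.998 and 11.94 on the controls. Atp5j cold arrays lay below all controls at both times by small amounts that did not pass the test (log2 -0.21, SE 0.09, adjusted p = 0.065 at 1 week and log2 -0.11, SE 0.09, adjusted p = 0.35 at 5 weeks), and centring on the array median gave 0.011 and 0.047. The 1 week fall of Atp5j was called with no filter on dim probe sets or with an intensity trend (-0.21 in each), with quantile normalization (-0.27), with the muscle covariate (-0.26) and without cold_1wk 2 (-0.27). Atp5h (subunit d) and Atp5pb (subunit b) rose by log2 0.63 and 0.57 at 1 week and by 0.79 and 0.84 at 5 weeks.

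The small membrane subunits of ATP synthase rose in 5 of 5 genes at 1 week and 3 of 5 at 5 weeks. Atp5md read log2 12.97, 13.01 and 13.07 on the 1 week cold arrays, against 12.18, 12.19 and 12.14 on the 1 week controls. At 5 weeks Atp5md read 13.11, 13.04 and 12.95 on the cold arrays, against 12.01, 12.09 and 12.16 on the controls. Atp5md groups did not overlap (log2 0.85, SE 0.08, adjusted p = 1.36e-05 at 1 week and log2 0.95, SE 0.08, adjusted p = 8.94e-06 at 5 weeks). Atp5j2 (subunit f) read log2 13.93, 13.94 and 13.88 on the 1 week cold arrays, against 13.05, 12.92 and 12.997 on the 1 week controls. At 5 weeks Atp5j2 read 13.56, 13.57 and 13.40 on the cold arrays, against 12.97, 13.04 and 13.04 on the controls. For Atp5j2 too the groups were apart (log2 0.93, SE 0.08, adjusted p = 7.79e-06 at 1 week and log2 0.49, SE 0.08, adjusted p = 0.000619 at 5 weeks). Atp5l (subunit g) read log2 13.38, 13.48 and 13.39 on the 1 week cold arrays, against 12.57, 12.37 and 12.44 on the 1 week controls. At 5 weeks Atp5l read 12.75, 12.81 and 12.27 on the cold arrays, against 12.26, 12.30 and 12.33 on the controls. Atp5l cold arrays exceeded all controls at 1 week, and at 5 weeks cold_5wk 3 fell among the controls (log2 0.96, SE 0.13, adjusted p = 0.000135 at 1 week and log2 0.32, SE 0.13, adjusted p = 0.0744 at 5 weeks). Atp5mpl read log2 12.46, 12.51 and 12.45 on the 1 week cold arrays, against 11.78, 11.70 and 11.65 on the 1 week controls. At 5 weeks Atp5mpl read 11.89, 11.96 and 11.40 on the cold arrays, against 11.65, 11.67 and 11.69 on the controls. Atp5mpl behaved alike, with cold_5wk 3 below every 5 week control (log2 0.76, SE 0.13, adjusted p = 0.000523 at 1 week and log2 0.08, SE 0.13, adjusted p = 0.664 at 5 weeks). Atp5k (subunit e) rose by log2 0.73 at 1 week and 0.60 at 5 weeks.

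Among the 3 genes of the ATP synthase c ring 1 rose and 1 fell at 1 week, and none rose and 2 fell at 5 weeks. The c subunit is encoded by Atp5g1, Atp5g2 and Atp5g3, whose mature proteins are the same and whose mitochondrial import sequences differ. Atp5g1 read log2 9.02, 9.80 and 8.92 on the 1 week cold arrays, against 9.76, 9.79 and 9.95 on the 1 week controls. At 5 weeks Atp5g1 read 8.92, 8.71 and 8.49 on the cold arrays, against 10.06, 10.02 and 9.997 on the controls. At 1 week the cold array with the high muscle signal (cold_1wk 2) lay among the controls and the others below them, and at 5 weeks all cold arrays were below all controls (log2 -0.59, SE 0.20, adjusted p = 0.0274 at 1 week and log2 -1.32, SE 0.20, adjusted p = 0.000416 at 5 weeks). The 1 week fall of Atp5g1 was not called in the 6 arrays of the comparison alone, nor with centring (-0.37), quantile normalization (-0.46), the Gapdh covariate (-0.60), or without any of control_1wk 2 (-0.61), control_1wk 3 (-0.53), cold_1wk 1 (-0.47) and cold_1wk 3 (-0.43). The 5 week fall, to 0.40 of the control level, was not called with the beta-actin covariate (-0.99).

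Atp5g2 read log2 12.09, 12.17 and 12.02 on the 1 week cold arrays, against 11.51, 11.14 and 11.12 on the 1 week controls. At 5 weeks Atp5g2 read 11.48, 11.55 and 10.37 on the cold arrays, against 11.51, 11.56 and 11.54 on the controls. Its 1 week cold arrays were above all controls, while the 5 week groups overlapped and cold_5wk 3 stood far below the other cold arrays (log2 0.84, SE 0.25, adjusted p = 0.0166 at 1 week and log2 -0.41, SE 0.25, adjusted p = 0.232 at 5 weeks). Without cold_5wk 3 the 5 week value was -0.02, and the 1 week rise was not called without control_1wk 2 (0.78) or control_1wk 3 (0.77). Atp5g3 read log2 13.63, 13.79 and 13.70 on the 1 week cold arrays, against 13.75, 13.66 and 13.71 on the 1 week controls. At 5 weeks Atp5g3 read 13.55, 13.46 and 13.28 on the cold arrays, against 13.68, 13.78 and 13.73 on the controls. Atp5g3 groups overlapped at 1 week and were apart at 5 weeks, where the cold arrays were lower (log2 -0.00097, SE 0.09, adjusted p = 0.994 at 1 week and log2 -0.30, SE 0.09, adjusted p = 0.019 at 5 weeks). That 5 week fall was lost with centring (-0.14), with the muscle (-0.21), Gapdh (-0.23) or beta-actin covariate (-0.04), and without cold_5wk 3 (-0.23) or control_5wk 2 (-0.28).

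The cold effect was smaller at 5 weeks than at 1 week in 17 of the 39 genes and larger in none (limma interaction term, adjusted p under 0.05), where 8.38% of all genes had a lower and 11.5% a higher value at 5 weeks. The genes were Sdhb, Sdhc, Sdhaf1, Uqcrc1, Uqcrq, Uqcr10, Uqcr11, Uqcrh, Cox6c, Atp5d, Atp5a1, Atp5e, Atp5o, Atp5j2, Atp5l, Atp5mpl and Atp5g2, with differences of -0.35 to -1.24 on the log2 scale. Without adjustment, p under 0.05 was reached in 21 genes for a lower value and 1 for a higher one, where 4540 of all 12855 genes reached it in either direction. The call of Atp5a1 was marginal (adjusted p = 0.0498, limma). It was lost in 9 of the 12 fits without 1 array, and the other Atp5a1 probe sets gave 0.18 and 1.64, the second one called. Such fits also lost the calls of Uqcrc1 and Cox6c (10 each), Sdhb (9), Uqcrh and Atp5g2 (7 each) and Atp5o (6). Those of Atp5l (5), Atp5mpl (3) and Atp5j2 (2) were lost less often. All 12 fits kept the calls of Sdhc, Sdhaf1, Uqcrq, Uqcr10, Uqcr11, Atp5d and Atp5e. Another probe set of Cox6c gave 0.14 and another of Atp5o -0.02, neither called. Small subunits of complex III gave 4 of the 17 calls, and the F1 head and the small membrane subunits of ATP synthase 3 each. The count of calls changed with the setting. It was 0 with the muscle, the Gapdh or the beta-actin covariate and without control_1wk 2 and 3, with 14, 1, 1 and 13 genes lower at an unadjusted p under 0.05 (limma) in these 4 settings. It was 7 without control_1wk 2, 9 without control_1wk 3 and 11 without cold_1wk 1, beside 4.88%, 5.71% and 7.12% of all genes called lower. Without control_5wk 1, 2 and 3 in turn it was 8, 7 and 10, beside 4.81%, 4.57% and 6.29% of all genes. Among probe sets whose name marks a single transcript it was 11 of the 31 genes tested, beside 8.54% of all genes. With the muscle, Gapdh and beta-actin covariates 1.59%, 0.0156% and 0% of all genes were called lower. The median difference of the 39 genes was -0.33 over all arrays. It was -0.38 to -0.29 without any 1 array, with 19 to 23 genes lower at an unadjusted p under 0.05 (limma). It was -0.32 with the muscle covariate, -0.26 without control_1wk 2 and 3, -0.11 with the Gapdh covariate and -0.12 with the beta-actin covariate. The beta-actin measure was higher on the 3 cold arrays at 5 weeks than on every other array, so this covariate and that group can hardly be told apart. The Gapdh measure was higher on all 1 week controls than on the 1 week cold arrays, and lower on all 5 week controls than on the 5 week cold arrays. The muscle mean was higher on all 5 week controls than on the 5 week cold arrays. Both thus move with the difference tested, and these fits cannot separate them from it.

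**Figure D4:**
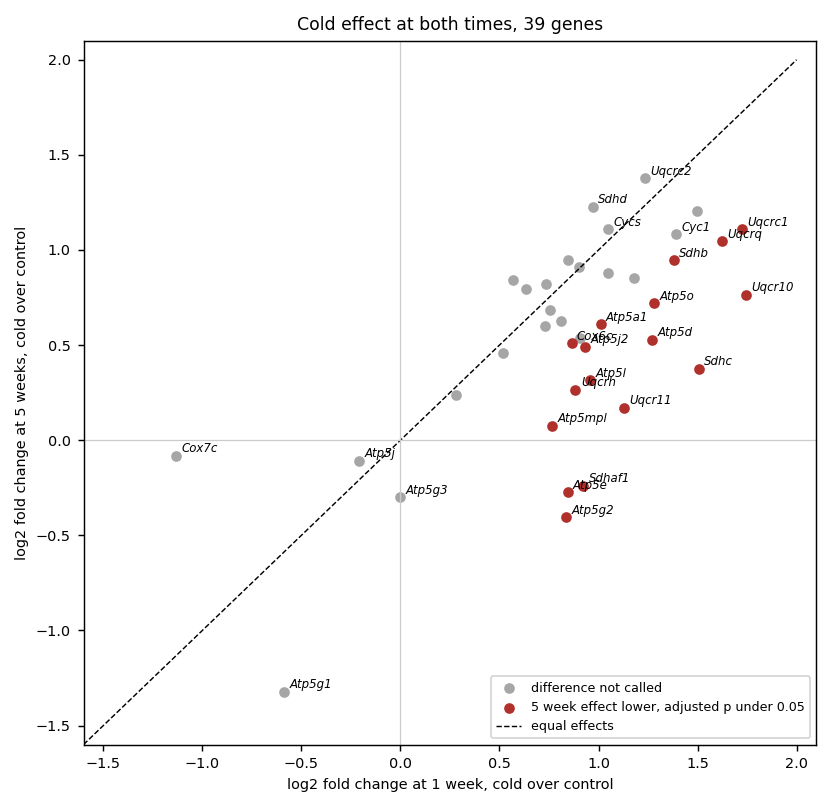
Log2 fold change, cold over control, at 5 weeks (y axis) against that at 1 week (x axis) for the 39 genes, with the 17 genes whose 5 week effect was lower in red and the line of equal effects dashed. The red points run from Uqcrc1 and Uqcr10 at the right down to Atp5g2, Atp5e and Sdhaf1 below 0 on the y axis. By their brightest probe sets Cycs, Sdhd and Uqcrc2 lie above the line, while other probe sets of these genes gave lower effects at 5 weeks.

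The cold arrays and the controls were also compared over time. In the cold, 22 of the 39 genes were lower at 5 weeks than at 1 week and 1 (Cox7c, log2 0.82) was higher, where 12% of all genes were lower and 15.4% higher (limma, adjusted p under 0.05). The largest differences were those of Atp5e (log2 -1.06, SE 0.18), Uqcr11 (-1.03, SE 0.14) and Uqcr10 (-1.01, SE 0.14). All 5 genes of the F1 head were lower at 5 weeks, and Cycs (0.04), Sdha (-0.13) and Uqcrc2 (0.19) did not pass the test. The count was 14 with the Gapdh covariate, 15 without cold_5wk 3, and 0 with the beta-actin covariate, where 2 genes were lower at an unadjusted p under 0.05 (limma). Of all genes 6.99%, 7.37% and 0.0311% were called lower in these settings. In the controls none of the 39 genes differed between 5 weeks and 1 week (limma, adjusted p under 0.05), where 1.28% of all genes were higher and 1.27% lower at 5 weeks. At an unadjusted p under 0.05 (limma) 4 of the 39 genes differed, beside 2372 of all 12855 genes tested. The comparisons share arrays, so their counts are not independent.

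The probe sets of a gene mostly pointed the same way. Of the 80 probe sets, 71 passed the filter, and 22 genes had more than 1 of them. Among the 32 that were not the brightest of their gene, 24 gave the same call at 1 week, 5 the same sign with another call and 3 the opposite sign. At 5 weeks the numbers were 26, 4 and 2, and no pair was called in opposite directions at either time. For the difference between the times agreement was lower, with 17, 4 and 11. Opposite signs with a call came from dim probe sets of Atp5a1 (1.64) and Atp5c1 (0.72) and from the other Sdhd probe set. The latter gave -0.68 (adjusted p = 0.0129, limma), against 0.26 for the brightest one. Among those that turned sign without a call, Cycs gave -0.30 and -0.02 and Uqcrc2 -0.23. The opposite signs at 1 week were those of dim probe sets of Atp5c1, Atp5g2 and Sdha, with -0.40, -0.0055 and -0.43. A dim Atp5a1 probe set, averaging log2 5.64, gave 0.23 at 1 week and 1.87 at 5 weeks. The brightest probe set of 21 of the 39 genes has a name that marks several transcripts or related sequences. Without such probe sets 31 genes were tested, of which 26 rose and none fell at 1 week and 20 rose and 1 fell at 5 weeks. In that setting 16.9% of all genes rose at 1 week and 13.3% at 5 weeks.

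Other genes of the same pathway rose with them. Of 33 complex I subunits tested 32 rose at 1 week and 29 at 5 weeks, with none lower in either comparison and medians of 0.94 and 0.80. The NADH-binding subunit Ndufv1 rose by log2 1.47 and 1.53 (SE 0.09) and Ndufs3 by 1.22 and 0.82 (SE 0.08). All 12 tested enzymes of the tricarboxylic acid cycle around complex II rose at both times, with medians of 1.43 and 1.37, such as Idh3b (1.56 and 1.49) and Ogdh (1.52 and 1.42). Assembly factors of complexes III, IV and V rose in 15 of 19 at 1 week and 12 of 19 at 5 weeks, with medians of 0.50 and 0.61, such as Atpaf2, which assembles the F1 head (1.70 and 0.61), and Tmem70, which assembles ATP synthase (1.21 and 1.04). Of 3 carriers that feed ATP synthase with ADP and phosphate, 1 (Slc25a5) rose at 1 week and all 3 at 5 weeks.

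Other complex IV subunits were spread more widely. Of 10 tested, 9 rose and 1 fell at 1 week, and 6 rose and 1 fell at 5 weeks, with medians of 0.72 and 0.57. Cox7a1, an isoform of heart, muscle and brown fat that is also among the brown and beige markers, rose by log2 5.19 and 4.48 (SE 0.30), far beyond any of the 39 genes, and Cox6b1 by 1.02 and 0.82 (SE 0.08). General mitochondrial genes, such as Immt of the inner membrane (1.07 and 0.93) and Phb2 (0.90 at 1 week and 0.07, not called, at 5 weeks), rose in 8 of 10 and 7 of 10, with medians of 0.55 and 0.33. Among 12 regulators of respiratory genes 4 rose and 4 fell at 1 week, and 5 rose and 3 fell at 5 weeks. The coactivators Ppargc1a (1.64 and 1.79) and Ppargc1b (1.63 and 1.82) rose at both times. The factors whose motifs were searched moved differently from each other. Nrf1 itself fell by 0.61 at 1 week and gave 0.10 at 5 weeks (not called), and Yy1 fell by 0.90 and 0.59. Of the ERR factors Esrra rose by 1.23 at 1 week and gave 0.13 at 5 weeks (not called), Esrrg rose by 1.50 and 2.83, and Esrrb gave 0.24 (not called) and rose by 0.49. Of the GABP subunits Gabpa gave -0.03 at 1 week (not called) and rose by 0.69 at 5 weeks, while Gabpb1 fell by 0.85 and 0.80. In the controls no gene of these 7 lists was called between 5 weeks and 1 week.

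**Figure D5:**
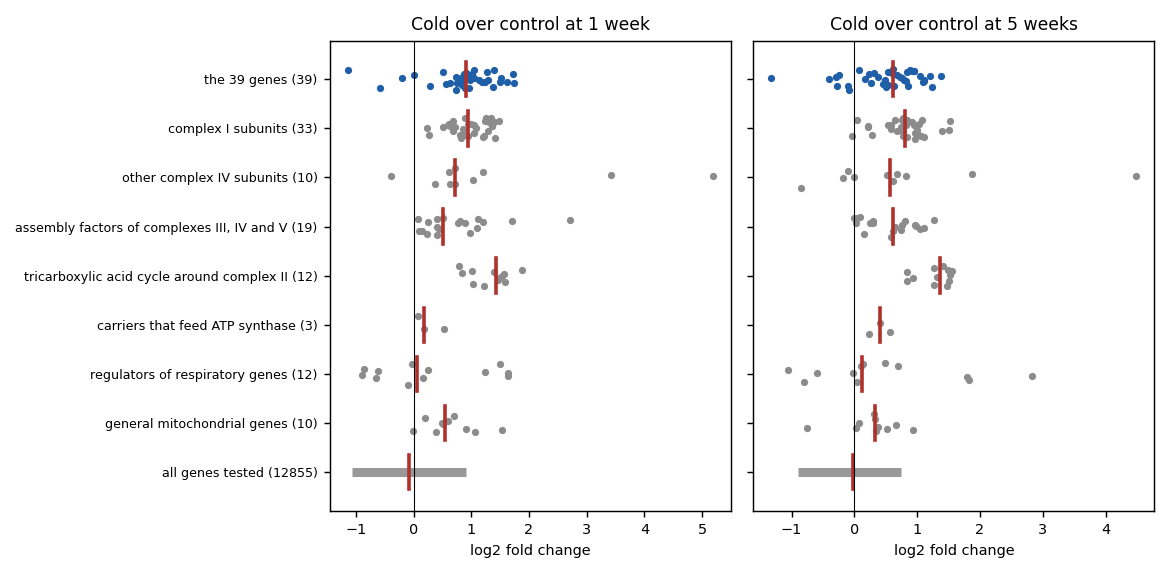
Log2 fold change, cold over control, of the 39 genes and of 7 lists of related genes at 1 week (left) and 5 weeks (right), 1 point per gene tested, with red lines for the medians and, for all 12855 genes, a grey bar in place of points. The 39 genes have medians of 0.90 and 0.61, complex I subunits 0.94 and 0.80, and tricarboxylic acid cycle enzymes 1.43 and 1.37, beside -0.08 and -0.03 for all genes.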

How the data were processed

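Affymetrix arrays of white adipose tissue, 12 in 4 groups of 3, were used as the authors deposited them, as log2 signals per probe set made with GCRMA, per the submitters' processing notes. Of 45101 probe sets, 34945 had 1 gene symbol, and the 64 control probe sets, the 932 of several symbols and the 9160 of none were left out of the tests. Probe sets not above log2 4 on 3 or more arrays were dropped. Each gene was read from its brightest such probe set. Group means were fitted over all 12 arrays with limma 3.58.1 in R 4.3.3 (lmFit and eBayes, 2-sided, Benjamini-Hochberg over 12855 genes, calls at an adjusted p under 0.05), after a test on simulated data. The 4 groups follow the titles. All probe sets of the 39 genes were also fitted, with p adjusted over the 22378 above the filter, and values of other probe sets come from that fit.

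The 39 genes, the gene lists and the tests were chosen with earlier results of these data known. Values on every array are given for the genes with the highest and lowest mean cold effect of each role, every gene that fell, every gene whose effect differed between the times, the c subunit genes, Cycs and Cyc1. From each related list up to 2 genes with the smallest adjusted p at 1 week are named, and from the regulators also the factors whose motifs were searched. Alternatives were the filter, the normalization, the choice of probe set, the fit, covariates, each array left out, and a 2-fold minimum; leaving out control_1wk 2 and 3, the beta-actin covariate and the 1 week controls for the 5 week arrays were added after seeing the data. Promoters are RefSeq's, for GRCm38.p6.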

Additional observations from a re-analysis of the deposited data

Results flagged for a closer look

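The cold effect at 5 weeks differed from that at 1 week by limma's interaction term (adjusted p under 0.05 over all genes tested) in 17 of the 39 genes, all with a lower value at 5 weeks. In complex II the differences, 5 weeks minus 1 week on the log2 scale, were -0.43 for Sdhb, -1.13 for Sdhc and -1.16 for the assembly factor Sdhaf1. In complex III they were -0.61 for Uqcrc1, -0.58 for Uqcrq, -0.98 for Uqcr10, -0.96 for Uqcr11 and -0.62 for Uqcrh. The complex IV subunit Cox6c gave -0.35. In ATP synthase they were -0.74 for Atp5d, -0.40 for Atp5a1, -1.12 for Atp5e, -0.56 for Atp5o, -0.44 for Atp5j2, -0.64 for Atp5l, -0.69 for Atp5mpl and -1.24 for Atp5g2. None of the 17 was called with the muscle, Gapdh or beta-actin covariate, where 1.59%, 0.0156% and 0% of all genes were called lower. In the fit without covariates 8.38% of all genes were. The median difference of the 39 genes was -0.33 over all arrays and -0.32, -0.11 and -0.12 with these 3 covariates. Without control_1wk 2 and 3, a fit with 1 control array at 1 week, the median was -0.26.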

How the results depend on the processing

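The counts of genes that rose among the 39 kept within 1.5 times under every alternative but a 2-fold minimum, which left 15 of 35 at 1 week and 7 of 27 at 5 weeks; leaving out 1 array gave 34 to 35 and 26 to 31. The 17 lower effects at 5 weeks became 11 with single-transcript probe sets, 4 with a 2-fold minimum, 0 with the muscle, Gapdh or beta-actin covariate or without control_1wk 2 and 3, and 7 to 20 without 1 array. The 22 genes lower at 5 weeks in the cold became 14 (Gapdh), 0 (beta-actin), 3 (2-fold) and 15 to 23 without 1 array. The cause was not tested, except that the 2-fold minimum makes fewer calls by construction.

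Over all genes, 6361 calls at 1 week became 3035 (Gapdh), 2884 (without control_1wk 2 and 3) and 1338 (2-fold), and 5310 to 6477 without 1 array. At 5 weeks 4655 became 2505 (muscle), 795 (beta-actin) and 800 (2-fold), and 3513 to 4999. The 2551 differences between the times became 833 (muscle), 3 (Gapdh), 133 (without control_1wk 2 and 3), 0 (beta-actin) and 696 (2-fold), and 1381 to 3021. In the cold 3534 calls over time became 2126 (6 arrays alone), 1885 (Gapdh), 5 (beta-actin) and 355 (2-fold), and 2054 to 3714. In the controls 328 became 2042 (array weights), 210 (muscle), 30 (Gapdh), 48 (without control_1wk 2 and 3) and 85 (2-fold), and 61 to 840.

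Signs turned in these cases. At 1 week Atp5c1 gave -0.40 with its single-transcript probe set, and Atp5g3 0.22 and Atp5j 0.011 with centring; Atp5g3 gave -0.040 to 0.036 without 1 array. At 5 weeks Atp5e gave 0.0011 and Atp5g2 0.045 (Gapdh), Atp5e 0.64, Atp5g2 0.87 and Cox7c 0.37 (beta-actin), Atp5j 0.047 and Cox7c 0.074 with centring, Atp5j 0.021 (muscle), and Cox7c 0.031 with quantile normalization, 0.022 with the mean of all probe sets and 0.13 with the single-transcript one. Atp5mpl gave -0.028 to 0.25 without 1 array, and Uqcrh -0.0024 against the 1 week controls. The difference between the times was 0.47 for Atp5a1 with the mean of all probe sets and 0.15 for Atp5g2 with the beta-actin covariate.

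Same-numbered arrays did not visibly deviate together (r of -0.0268 to 0.0744 over 6 pairs, 1 array closest to its own number). So few pairs cannot exclude that the numbers pair them. With the number as a replicate block 35 of the 39 genes rose at 1 week and 26 at 5 weeks, and 14 had a lower effect at 5 weeks. In that fit 17.7% of all genes rose at 1 week and 14.5% at 5 weeks, and 8.14% had a lower effect at 5 weeks.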
